A study of Mus musculus with 55 samples.

Results

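Irs1 encodes insulin receptor substrate 1, an adaptor that is phosphorylated on tyrosines by the activated insulin and IGF-1 receptors and then recruits phosphatidylinositol 3-kinase, which leads to AKT activation. In the liver it acts beside its relative IRS2 in the control of glucose and lipid metabolism. CpG methylation is the addition of a methyl group to the cytosine of a CG dinucleotide, and bisulfite sequencing reads it as the share of molecules whose cytosine is protected from conversion.

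The Irs1 members are all CpGs that the locus-specific bisulfite sequencing (LSBS) table lists under Irs1, 10 of 166 CpGs at 17 loci. LSBS amplifies a chosen region after bisulfite conversion and gives a percent methylation per CpG and liver. Livers of C57BL/6 mice kept under standard conditions, with no treatment named in the labels, were read at the late embryonic stage E18.5 (2 females and 3 males), postnatal days P1 (2 females and 3 males), P5 (3 females and 1 male), P10 (3 females and 1 male), P15 (2 females and 1 male), P20 (2 females and 3 males) and 6 mo (2 females and 3 males). A 2nd set of 24 reduced representation bisulfite sequencing (RRBS) libraries, which read CpG-rich restriction fragments across the genome, came from livers at E18.5 (n = 5), P1 (n = 9) and 9 wk (n = 10). Per the study's methods, mice of its first RRBS experiments ate a chow whose fat came from coconut oil, and its 9 wk RRBS mice were male. Whole liver is a mixture of cells that includes blood-forming cells before birth and in the first days after it. By the study's histology their share was highest at P1, still large at P5 and small by P10. A changed share of a cell type and a changed level per cell therefore cannot be told apart.

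The 10 CpGs lie at chr1:82285756-82285857 (mm9), inside exon 1 of 2 of Irs1, a gene of 58316 bp on the minus strand at chr1:82229676-82287991. Exon 1 holds the whole coding sequence of 3693 bp, and the CpGs lie in it, 2134 to 2235 bp downstream of the start site, in codons 404 to 438. They are numbered here from the one nearest the start site. The stretch is shown because it holds every CpG that the Irs1 results turn on: all 10 CG dinucleotides in its 103 bases were measured, and capitals mark them in order from CpG 1 to CpG 10. The sequence is the sense strand, 5′ to 3′, of chr1:82285756-82285858 in NCBIM37 (mm9).

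Irs1 CpGs 1 to 10: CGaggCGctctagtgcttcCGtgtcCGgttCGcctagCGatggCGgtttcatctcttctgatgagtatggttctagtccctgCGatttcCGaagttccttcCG

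CpGs 1 to 7 lie close together, then a stretch without a CG separates CpG 7 from CpG 8. Their positions are 39 bp apart, the widest gap. Neighbouring CpGs are 5 to 39 bp apart, with a median of 7 bp. A 500 bp window centred on the span holds 17 CpGs at 59% GC, with an observed to expected CpG ratio of 0.398, whereas 500 bp centred on the start site hold 43 CpGs at 70% GC, with a ratio of 0.706. Within the 103 bases of the span itself, which begin and end with a CG, the ratio is 1.27 at 55.3% GC. The start site lies outside the amplified span.

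All 10 Irs1 CpGs gained methylation between E18.5 and 6 mo. Averaged over the 10 CpGs, methylation was 86.3% at E18.5 and 95.6% at 6 mo, and the gains ran from 5.78 to 12.96 points with a median of 9.50 points. Each CpG was called higher, where a call needs an adjusted p of at most 0.1 and a difference of more than 5 points. Of all 166 LSBS CpGs, 14.5% (24 CpGs) were called higher in the same comparison, and these include the 10 Irs1 CpGs. The 166 also hold the loci at Srebf1 (22 CpGs), Nfkb1 (19), Nr1h2 (17), Srebf2 (15), Igf2 (11), Pck2 (10) and Nfkb2 (2). Their age means were at most 3.65%, and none of their CpGs was called in this comparison. The shares of all LSBS CpGs given here and below are therefore not shares among CpGs as methylated as those of Irs1. The adjusted p-values of the limma test ran from 1.63e-10 to 0.000847 over the 10 CpGs, after Benjamini-Hochberg adjustment over all 166. In an exact permutation test of each CpG, two-sided, all 10 reached the smallest p that 5 against 5 livers allow, 0.00794, which is 0.0240 after adjustment over the 166 CpGs. At each of the 10 CpGs the lowest liver at 6 mo lay above the highest liver at E18.5, which held at 16.9% of all LSBS CpGs.

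**Figure D1:**
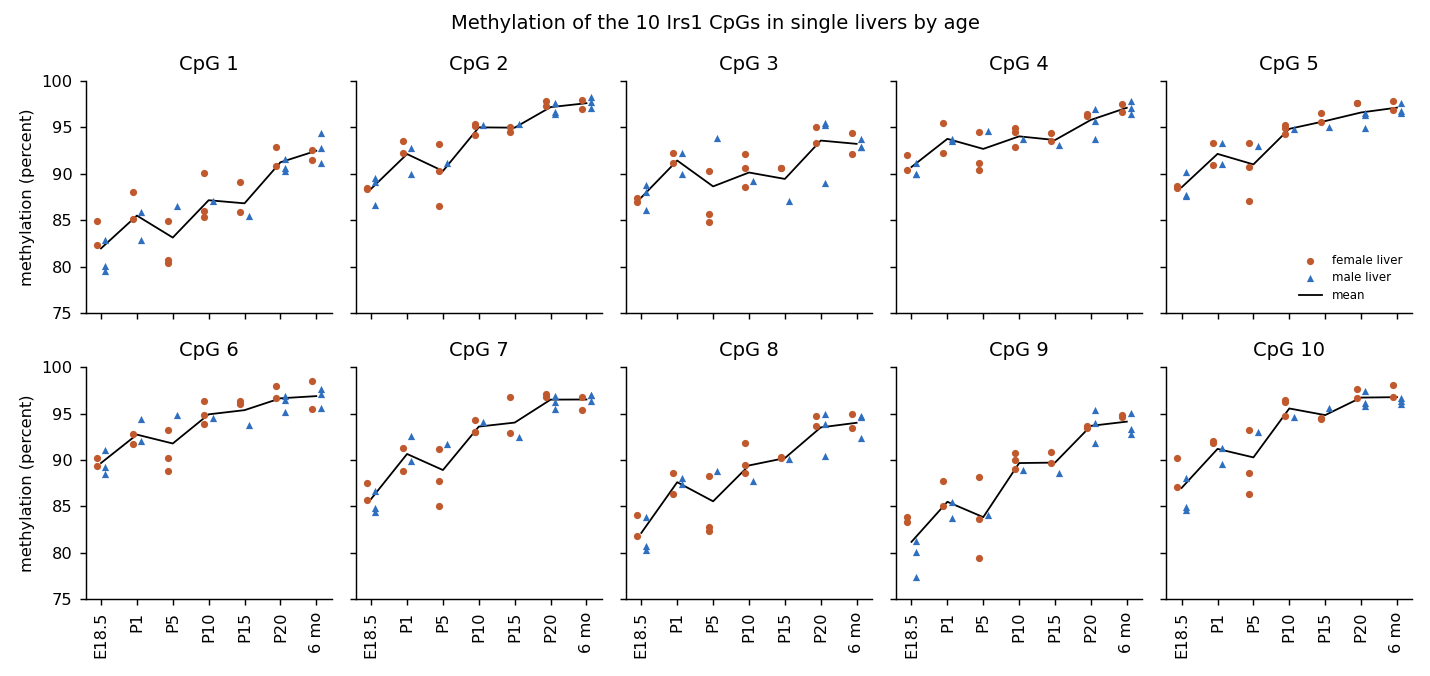
Percent methylation of each Irs1 CpG (1 panel per CpG, numbered from the start site) in single livers at 7 ages, drawn as evenly spaced categories; circles are female livers, triangles male livers, and the line joins the age means. The methylation axis runs from 75 to 100%, and at every CpG the 6 mo livers lie above all E18.5 livers.

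CpG 9, at position 82285768, had the largest gain and the lowest mean at E18.5. Its 5 livers at E18.5 read 77.4, 80.1, 81.2, 83.3 and 83.9%, and its 5 livers at 6 mo read 92.8, 93.3, 94.7, 94.9 and 95.0%. The groups were separated by a wide margin, and the gain was 12.96 points (SE 1.22, limma adjusted p 6.04e-10). CpG 8, 7 bp nearer the start site at 82285775, read 80.3, 80.7, 81.8, 83.9 and 84.1% at E18.5 and 92.3, 93.4, 94.7, 94.7 and 94.9% at 6 mo. Its gain of 11.87 points (SE 1.15, limma adjusted p 1.02e-09) was the next largest. CpG 10, the farthest from the start site at 82285756, began higher, with 84.7, 85.0, 87.1, 88.1 and 90.2% at E18.5, and ended at 96.0, 96.4, 96.6, 96.8 and 98.1%, a gain of 9.78 points (SE 1.07, limma adjusted p 1.06e-08).

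CpG 3, at 82285838, had the smallest gain. It read 86.1, 86.9, 87.4, 88.0 and 88.8% at E18.5 and 92.1, 92.9, 92.9, 93.8 and 94.4% at 6 mo. These groups did not overlap either, and the gain of 5.78 points (SE 1.36, limma adjusted p 0.000847) stood just above the 5 point minimum. CpG 4, 6 bp away at 82285832, had the highest mean at E18.5 and the next smallest gain, 6.38 points (SE 0.75, limma adjusted p 4.33e-08). Its livers read 90.0, 90.0, 90.4, 91.2 and 92.1% at E18.5 and 96.4, 96.7, 97.1, 97.5 and 97.8% at 6 mo.

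CpG 1, nearest the start site at 82285857, had the lowest mean over all 7 ages, 86.9%. Its livers read 79.5, 80.1, 82.3, 82.9 and 84.9% at E18.5 and 91.2, 91.5, 92.6, 92.8 and 94.4% at 6 mo, a gain of 10.52 points (SE 1.25, limma adjusted p 4.80e-08). It was the least methylated of the 10 CpGs at 6 mo, and CpG 9 was at E18.5. CpG 2, only 5 bp away at 82285852, was the most methylated at 6 mo, with 97.0, 97.1, 97.7, 98.0 and 98.3% against 86.6, 88.3, 88.4, 89.1 and 89.5% at E18.5. The livers of CpG 1 and CpG 2 did not overlap at either age, although both CpGs were amplified together.

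The other 3 CpGs lie between CpG 4 and the gap. CpG 6, at 82285820, had the highest mean over all ages, 94.0%, and rose from 88.5, 89.3, 89.3, 90.2 and 91.1% at E18.5 to 95.5, 95.6, 97.1, 97.7 and 98.6% at 6 mo. CpG 5, at 82285827, rose from 87.7, 87.7, 88.5, 88.7 and 90.2% to 96.5, 96.7, 96.8, 97.7 and 97.9%. CpG 7, at 82285814, rose from 84.4, 84.8, 85.7, 86.7 and 87.5% to 95.4, 96.4, 96.8, 97.0 and 97.1%. In all of them, too, the 2 ages were separate, and the gains were 7.21 points at CpG 6, 8.59 points at CpG 5 and 10.71 points at CpG 7.

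**Figure D2:**
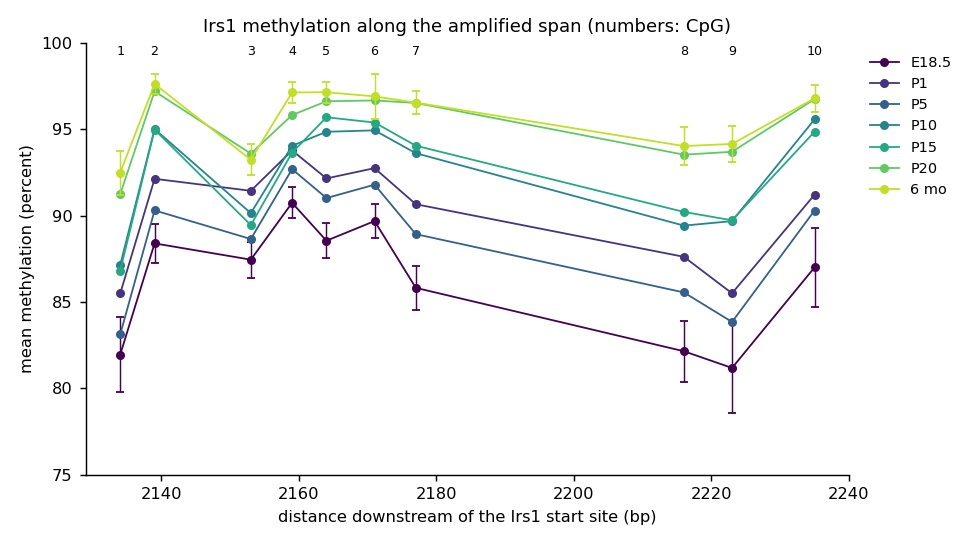
Mean methylation of the 10 Irs1 CpGs (y axis, percent, from 75 to 100%) by distance downstream of the start site (x axis, bp), with 1 line per age and SD bars between livers at E18.5 and 6 mo. CpGs 1, 3, 8 and 9 are the 4 lowest at 6 mo, and the spread between CpG means narrows from 9.55 points at E18.5 to 5.13 points at 6 mo.

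The profile along the span was partly kept. The E18.5 mean and the 6 mo mean of a CpG correlated across the 10 CpGs (Pearson r = 0.75, a description over CpGs read in the same livers and amplified together). The difference between the highest and the lowest CpG mean was 9.55 points at E18.5, 8.41 points at P10, 5.95 points at P20 and 5.13 points at 6 mo. Expressed as the unmethylated share, the mean over the 10 CpGs was 13.7% at E18.5 and 4.41% at 6 mo. The unmethylated share at E18.5 was 1.85 times that at 6 mo at CpG 3 and 4.86 times at CpG 2, the lowest and highest of the 10.

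The ages between showed when the gain took place. The mean over the 10 CpGs was 90.3% at P1, 88.6% at P5, 92.4% at P10, 92.5% at P15 and 95.2% at P20. In order of level the ages therefore ran E18.5, P5, P1, P10, P15, P20 and 6 mo. Of the neighbours in this order, no Irs1 CpG was called between E18.5 and P5, P5 and P1, P10 and P15, P15 and P20, or P20 and 6 mo, and P1 was not compared with P10. The median CpG had covered 42.7% of its whole gain by P1, 28.7% by P5, 68.6% by P10, 69.7% by P15 and 96.2% by P20. All 10 CpGs had their lowest age mean at E18.5, 9 had their highest at 6 mo, and CpG 3 had its highest at P20. The F test over the 7 ages passed at all 10 CpGs (limma adjusted p at most 0.00342), as it did at 42.8% of all LSBS CpGs.

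Methylation was already higher 1 day after birth. From E18.5 to P1 all 10 CpGs moved up, by 3.03 to 5.46 points, and all 10 had a limma adjusted p of at most 0.1 (0.00213 to 0.0837), as did 17.5% of all LSBS CpGs with a higher value at P1. Only CpG 8 also exceeded 5 points, and 6.02% of all LSBS CpGs were called higher in this comparison. CpG 8 read 86.4, 87.4, 88.1 and 88.6% in the 4 P1 livers, all above the 5 E18.5 livers, a gain of 5.46 points (SE 1.22, limma adjusted p 0.00228). At 7 of the 10 CpGs the P1 livers lay above all E18.5 livers, which was not counted over all LSBS CpGs. The call at CpG 8 was lost when the lowest E18.5 value of each CpG was left out, and with 1 value left out the count called ranged from 0 to 3.

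No further gain was measured to P5. All 10 means were lower at P5 than at P1, by 0.92 to 2.79 points, with limma adjusted p-values from 0.338 to 0.858, so none of the differences exceeded the spread between livers. From P1 to P5, 8.43% of all LSBS CpGs were called lower and 0% higher. Against E18.5, P5 was higher by 1.17 to 3.40 points and no Irs1 CpG was called, beside 3.61% of all LSBS CpGs. At CpG 9 the 4 P5 livers read 79.4, 83.7, 84.1 and 88.1%, a range that overlapped both the E18.5 livers and the P1 livers, which read 83.8, 85.0, 85.5 and 87.7%.

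Livers at P5 differed more from each other than at any other age. The SD between the 4 livers was 2.19 to 4.25 points over the 10 CpGs, with a median of 3.09 points, whereas the median SD was 0.83 to 1.33 points at the other 6 ages. All 10 Irs1 CpGs had their largest SD at P5, as had 18.1% of all LSBS CpGs. The 10 CpGs come from the same 4 livers and are not independent of each other. CpG 3 had the largest SD, with females at 84.8, 85.6 and 90.3% and the male at 93.8%. The single male was the highest of the P5 livers at 6 of the 10 CpGs and the lowest at none, and it lay 3.40 points above the mean of the 3 females on average. Among the females alone the SD was still 2.17 to 4.35 points (n = 3).

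**Figure D3:**
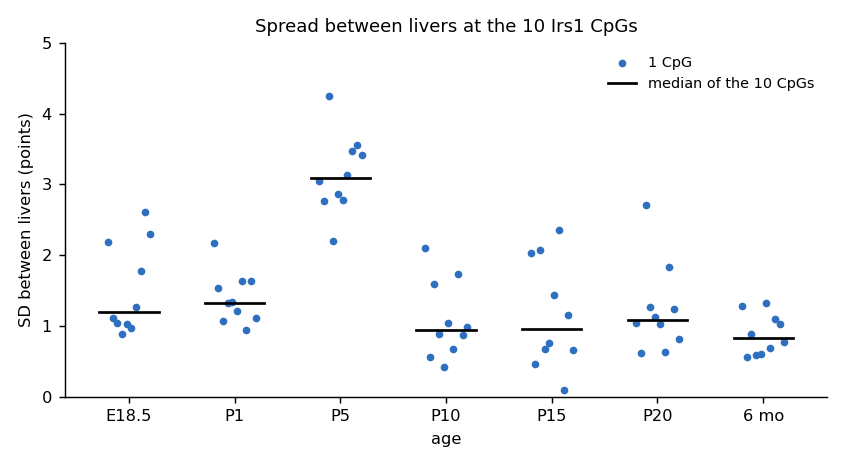
SD between livers (y axis, points) of each Irs1 CpG at 7 ages (x axis, categories); points are CpGs and bars the median of the 10. The P5 points lie between 2.19 and 4.25 points, around a median of 3.09 points, above the medians of the other ages.

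The largest step between consecutive ages was from P5 to P10, at CpG 9. Its P10 livers read 88.9, 89.0, 90.0 and 90.8%, all above the highest P5 liver, a rise of 5.83 points (SE 1.36, limma adjusted p 0.00125). CpG 10 rose by 5.27 points (SE 1.20, limma adjusted p 0.000937), from 86.3, 88.6, 93.0 and 93.3% to 94.7, 94.7, 96.3 and 96.5%, again with no overlap. These 2 were the only Irs1 CpGs called between P5 and P10, beside 5.42% of all LSBS CpGs called higher. The count rested on the P5 livers: it was 5 without the P5 male, and it was 0 without the lowest P5 value of each CpG.

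From P10 to P15 the Irs1 means moved by -0.71 to 0.84 points, 5 up and 5 down, and no CpG was called, beside 0.602% of all LSBS CpGs called higher and 18.7% called lower. From P15 to P20 all 10 means rose, by 0.93 to 4.42 points, and none exceeded 5 points, whereas 7.23% of all LSBS CpGs were called higher. With no minimum difference 6 of the 10 passed the limma test, beside 10.8% of all LSBS CpGs. CpG 1 had the largest of these rises, from 85.4, 85.8 and 89.2% at P15 to 90.3, 90.6, 90.8, 91.6 and 92.9% at P20, 4.42 points (SE 1.44, limma adjusted p 0.0233) with no overlap. From P20 to 6 mo the changes ran from -0.36 to 1.31 points with adjusted p-values of at least 0.481, and the share of all LSBS CpGs called was 0% higher and 3.01% lower.

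Against E18.5, 8 Irs1 CpGs were called higher at P10 (17.5% of all LSBS CpGs), 7 at P15 (11.4%) and 10 at P20 (16.3%). At P10 CpG 4 passed the limma test with 3.30 points, below the minimum, and CpG 3 did not pass, at 2.69 points (SE 1.44, limma adjusted p 0.175). CpG 3 was also the CpG without a limma adjusted p of at most 0.1 at P15, at 2.00 points (SE 1.57, adjusted p 0.340). Its P15 livers read 87.1, 90.6 and 90.7% and its P20 livers 89.0, 93.3, 95.0, 95.2 and 95.4%. Its gain over E18.5 was first called at P20, at 6.14 points. CpG 3 had, however, already stood higher at P1, by 3.98 points (SE 1.44, limma adjusted p 0.0722), below the minimum. Its P1 livers read 90.0, 91.2, 92.2 and 92.3%, and its means at P5, P10 and P15 were lower than at P1. At P20 the lowest liver lay above all E18.5 livers at all 10 CpGs, which was not counted over all LSBS CpGs.

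Males and females did not differ at Irs1 beyond the spread between livers. With age in the fit, the difference of males minus females ran from -1.37 to 0.19 points over the 10 CpGs, with limma adjusted p-values of 0.692 to 0.985, no unadjusted p under 0.05 and no CpG called, as at 0% of all LSBS CpGs. The change from E18.5 to 6 mo differed between the sexes by -0.58 to 3.54 points, with an SE of up to 2.49 points and adjusted p-values of at least 0.781. With 2 females and 3 males at each of these ages, a difference of a few points was not detectable. The single males of P10 and P15 lay 0.55 and 1.24 points below the mean of the females of their age on average, opposite to the male of P5.

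Among the 17 LSBS loci, Irs1 had the highest mean at E18.5 and at 6 mo. The means of the other 16 loci ran from 0.458 to 76.7% at E18.5, and their changes to 6 mo from -54.4 to 25.7 points. By size of change Irs1 ranked 8th. The loci whose 7 age means were most like those of Irs1 were the Sftpa1 promoter (Pearson r = 0.97 over 7 ages) and the Nr1i2 promoter (r = 0.95), and the least like was the Acsl1 promoter (r = -0.93), as a description of loci read in the same livers. The mean of the 4 Sftpa1 CpGs rose from 55.0 to 80.7%, that of the 5 Nr1i2 CpGs, at the gene of the pregnane X receptor, from 76.7 to 94.4%, and that of the 6 Acsl1 CpGs, at the gene of a long-chain acyl-CoA synthetase, fell from 53.9 to 19.2%. Nr1i2 stood at 82.7 and 82.9% at P1 and P5, where Irs1 showed its lower P5 mean.

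**Figure D4:**
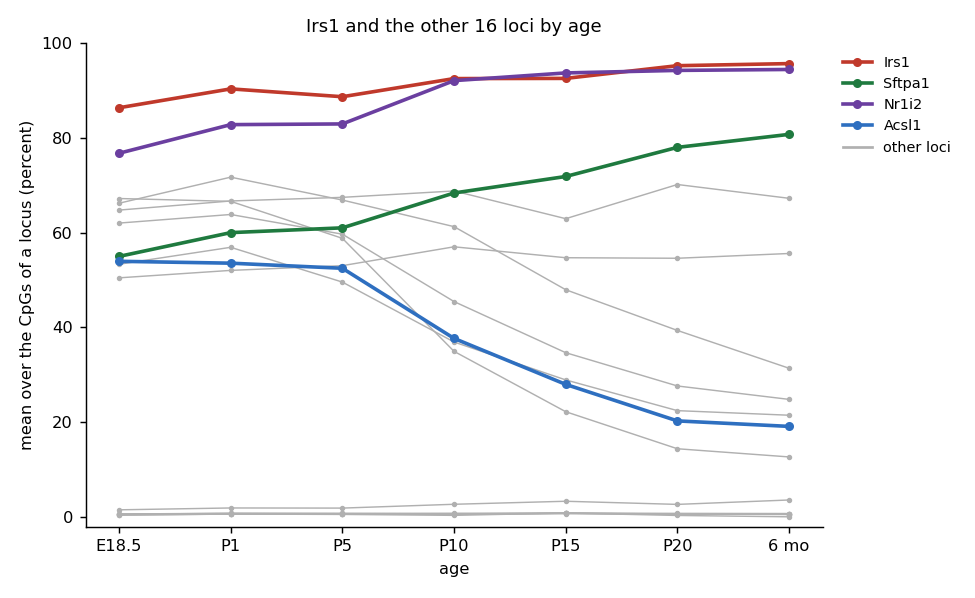
Mean methylation over the CpGs of a locus (y axis, percent) at 7 ages (x axis, categories) for Irs1, the loci most and least like it, and the other loci in grey. Irs1 is the highest line at E18.5, at 86.3%, and at 6 mo, at 95.6%.

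The RRBS table held none of its 271325 CpGs between 5 kb upstream of the Irs1 start site and the gene end, so the 10 LSBS CpGs have no RRBS value. RRBS cuts at CCGG, and the Irs1 region holds 55 such sites, 1 of them inside the measured span. The listed CpG nearest the gene lay at chr1:82226024 (mm9), 3652 bp beyond the gene end. The measured Irs1 CpGs lie near the other end of this gene of 58316 bp, so it is not a local counterpart of them. At this RRBS CpG the 5 E18.5 libraries read 77.3, 79.5, 81.3, 84.6 and 87.3%. The 8 P1 libraries with a value had a lowest of 75.9 and a highest of 94.1%, and the 10 libraries at 9 wk ran from 90.3 to 100%. All libraries at 9 wk lay above all at E18.5, by 13.8 points on average (SE 2.61, limma adjusted p 0.000347 over all RRBS CpGs tested). The difference from E18.5 to P1, 2.49 points (SE 3.44, limma adjusted p 0.743), was within the spread.

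The libraries as a whole also rose with age. The mean over CpGs with a value in every library was 63.2 to 64.6% in the E18.5 libraries, 65.8 to 69.8% at P1 and 72.5 to 73.4% at 9 wk. With each library scaled to the same mean, the difference of the CpG from E18.5 to 9 wk was 1.99 points (limma adjusted p 0.620), and that from E18.5 to P1 was -2.64 points. The median change of all RRBS CpGs tested from E18.5 to 9 wk was 9.68 points unscaled and -0.42 points scaled. The LSBS table covers chosen loci and cannot be scaled in this way.

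Set beside RRBS CpGs of the same level, most Irs1 gains lay above the median and between the quartiles. Of the RRBS CpGs tested, 61387 had an E18.5 mean between the lowest and highest of the Irs1 CpGs, 81.2 to 90.7%. Their change to 9 wk had a median of 8.60 points and quartiles of 5.76 and 11.1 points, and 66.2% of them were called higher. In bins of 4 points of E18.5 level, 8 of the 10 Irs1 gains to 6 mo were above the RRBS median, and 7 were between the quartiles. CpG 3 was below the lower quartile of its bin, 6.05 points. CpGs 2 and 5 were above the upper quartile of theirs, 7.86 points. Counted by bin, CpG 2, at 9.22 points, was also above the outer band of the plot of change by level, which ended at 9.09 points. Its E18.5 mean of 88.4% lay near the lower edge of its bin, and the outer band of the bin below ended at 12.3 points. The drawn band, which joins bin centres by straight lines, therefore runs above CpG 2. The assays, livers and final ages differ, the E18.5 level enters both quantities, and no test was made.

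**Figure D5:**
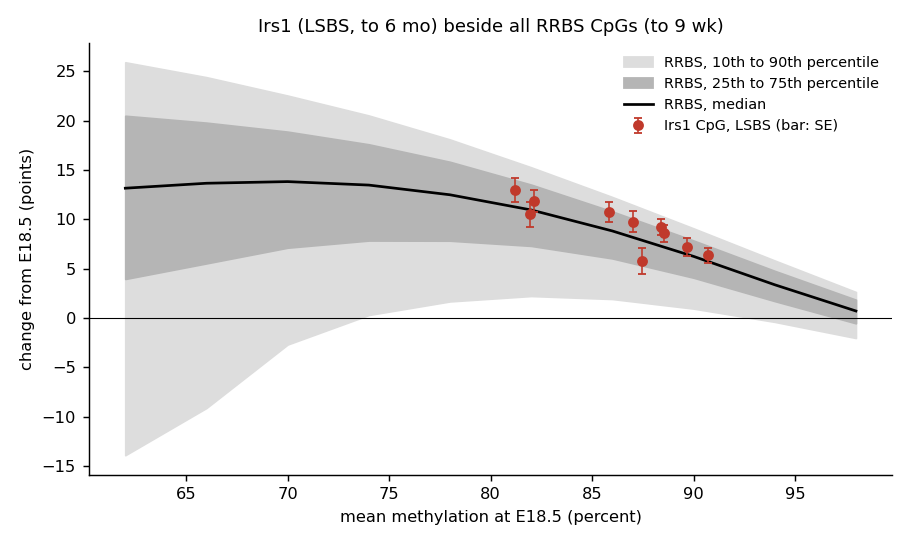
Change from E18.5 (y axis, points) by mean methylation at E18.5 (x axis, percent); red points are the 10 Irs1 CpGs by LSBS to 6 mo with SE bars, and the bands and black line give percentiles of RRBS CpGs to 9 wk in bins of 4 points. The Irs1 gains run from 5.78 to 12.96 points. Counted by bin, they lie between the quartiles at 7 CpGs, above at CpGs 2 and 5 and below at CpG 3. The drawn bands join bin centres by straight lines, so a point near a bin edge can lie otherwise than in this count.

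Other genes of insulin and IGF signalling were read by RRBS only as far as they hold listed CpGs: 36 of a list of 39 genes had 455 CpGs. From E18.5 to 9 wk, 202 of 408 tested CpGs of the list were called higher and 44 lower. Among all CpGs tested, 58.5% were called higher and 6.46% lower. The median change was 7.01 points in the list and 9.68 points over all CpGs tested. When libraries were scaled to the same mean, the split turned to 43 higher and 111 lower. Among all CpGs tested, 15.6% were then higher and 16.1% lower. The median change was then -3.93 points in the list and -0.42 points over all CpGs tested. Scaling divides all values of a library by a single factor. It lowers 9 wk values against younger ages, by more points where methylation is high. The 16 tested Foxo3 CpGs changed by 0.45 points on average unscaled and by -10.29 points scaled, where 11 were called lower. Lower calls after scaling, here and below, may therefore be set in part by the scaling. From E18.5 to P1, 2 of 447 CpGs were called higher and 0 lower, beside 0.540% and 0.0119% of all CpGs. These 2 were in Grb2 and Shc1, adaptors that link the receptors to RAS signalling, and with 1 library left out the count ran from 0 to 6. From P1 to 9 wk, 111 of 374 were higher and 37 lower, beside 36.1% and 7.00% of all, and 31 higher and 62 lower after scaling, beside 12.2% and 11.1% of all.

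Irs2, the other main adaptor of the insulin receptor in the liver, lost methylation. Of its 12 tested CpGs 10 were called lower from E18.5 to 9 wk, with and without scaling, and the mean of the 12 fell from 56.1 to 32.9%. From P1 to 9 wk 10 of 12 were again called lower, also with scaling, from a mean of 53.4%. Among the genes with the largest share of CpGs called from E18.5 to 9 wk were Ppargc1a, Irs2 and Srebf1. Ppargc1a, the gene of the coactivator PGC-1α, had 5 of 5 CpGs called higher, with a mean rising from 74.6 to 91.2%, and 1 higher after scaling. Among all CpGs tested, 58.5% were called higher unscaled and 15.6% scaled.

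Srebf1, which encodes a transcription factor of fatty acid synthesis that insulin induces, had 1 CpG called higher and 6 lower of 9 from E18.5 to 9 wk. Its mean went from 68.0 to 49.6%, and 0 were called higher and 7 lower after scaling. Among all CpGs tested, 6.46% were called lower unscaled and 16.1% scaled. From P1 to 9 wk the largest shares were at Irs2, Srebf1, Igf2r and Grb2. Igf2r, the receptor that clears IGF2, had 15 of 24 CpGs called higher in that interval, with a mean from 48.6 to 59.6%, and 8 higher after scaling. Grb2 had 3 called higher and 1 lower of 7, and 0 higher and 1 lower after scaling. Among all CpGs tested from P1 to 9 wk, 36.1% were called higher and 7.00% lower, and 12.2% and 11.1% after scaling. No test compared Irs1 with these genes, since they were read by another assay and to another age.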

How the data were processed

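The LSBS table holds percent methylation as the authors deposited it, with age and sex in each row but no sample name, so livers could not be followed across CpGs. Rows were grouped by age. The study's methods also list LSBS of 9 wk livers. Rows labelled 9 wk (50 at Irs1) match no sample used here and were not used. Irs1 was therefore not set beside RRBS at the same final age. One P1 male had no value at any Irs1 CpG, leaving n = 4, and the fits dropped it there. The RRBS table holds the fraction methylated as deposited by the authors, multiplied here by 100. Per the study's methods, reads were aligned to mm9 with Bismark (0.7.6, as in the submitters' processing notes), and LSBS CpGs needed at least 100 reads and RRBS CpGs at least 10. CpGs with over 20% of samples missing were removed from both, and CpGs under 10% methylation in all samples were removed from RRBS. Neither table gives read numbers, so the depth behind a value is unknown and no counting interval is given. Bisulfite reads do not tell methylation from hydroxymethylation, and unequal amplification of the 2 forms would shift LSBS levels.

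LSBS percentages of all 7 ages were fitted in limma 3.58.1 (R 4.3.3) with Benjamini-Hochberg adjustment over 166 CpGs. RRBS was fitted for 2 ages at a time, over CpGs with a value in 80% of libraries. A CpG was called at an adjusted p of at most 0.1 and a difference above 5 points. Exact permutation tests were two-sided. The fits were tested on simulated data. The p-values measure the spread between the livers sampled; the labels name no litters. Named CpGs are those with the highest and lowest mean, the largest and smallest gain, the largest step, and every called CpG; named loci are the 2 most and the 1 least correlated over ages; named pathway genes are the 4 with the largest share called among those with at least 5 tested CpGs, of which 1 is not reported here. Members and lists were chosen with earlier results of these data known. Columns with the authors' own p-values and q-values were not used. Annotation is GENCODE M1 on NCBIM37. Python 3.11.15, numpy 2.4.6, pandas 2.3.3, scipy 1.17.1 and matplotlib 3.10.9 were used.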

Additional observations from a re-analysis of the deposited data

Results flagged for a closer look

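In 63 groups of 4 to 10 values (the Irs1 CpGs by age, and the nearest RRBS CpG by age), 1 had a liver far from the others. At P10 the lowest liver of CpG 2 read 94.2%, whereas the other 3 ran from 95.2 to 95.4%. Chance flags about 1 in 20 such groups.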

How the results depend on the processing

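The gain from E18.5 to 6 mo was called at all 10 Irs1 CpGs under each alternative tried: a logit scale, no variance moderation, sex as a covariate, only these 2 ages in the fit, an adjusted p of 0.05, no minimum difference, the exact permutation test and leaving out 1 value at a time. The F test, the sex comparison and the counts against E18.5 at P10, P15 and P20 also stayed within 1.5 times. With no minimum difference the counts became 10 from E18.5 to P1, 4 from E18.5 to P5, 8 from P5 to P10, 6 from P15 to P20 and 24 over all consecutive steps. Without 1 value the counts ran from 0 to 3 (E18.5 to P1), 0 to 5 (P5 to P10), 0 to 1 (P15 to P20) and 1 to 6 (all steps). Leaving out the P5 male, a choice made with the values in view, they were 5 from P5 to P10 and 6 over all steps.

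In the pathway list, scaled libraries gave 154 calls from E18.5 to 9 wk (43 higher, 111 lower), 93 from P1 to 9 wk (31 and 62) and 0 from E18.5 to P1. Only CpGs with a value in every library gave 59 (47 and 12), 37 (27 and 10) and 1, among fewer CpGs tested. From E18.5 to P1 the logit scale and an adjusted p of 0.05 gave 0, 3 ages in the fit 6, and leaving out a library 0 to 6. At the nearest RRBS CpG scaling turned the difference from E18.5 to P1 to -2.64 points and gave 1.99 points from E18.5 to 9 wk and 4.63 points from P1 to 9 wk, the last 2 no longer called. The cause was not tested.

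Another coverage minimum could not be run without read numbers, and a value in every liver leaves no Irs1 CpG. No paired analysis was possible because the LSBS rows carry no sample name or number and the RRBS groups compared are different animals. With 3 to 5 livers per age, unknown depth and levels near 100%, small differences late in the series could not be resolved.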
